A study of Mus musculus with 16 samples.

Results

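Collagens II, IX and XI are built from the products of 6 genes, Col2a1, Col9a1, Col9a2, Col9a3, Col11a1 and Col11a2. The genes were chosen by name as the collagens of the cartilage fibril. A probe set was taken where the annotation of the array gave it exactly 1 gene and that gene was among the 6. This found 10 probe sets for all 6 genes, of 45037 probe sets tested and 18193 genes measured in all. Col9a3 had 3 probe sets, Col9a1 and Col11a1 had 2 each, and the other genes had 1.

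Collagen II is the main fibril-forming collagen of cartilage, hyaline cartilage above all, and its molecule is a homotrimer of the Col2a1 product. Collagen XI joins the same fibrils and helps to set their diameter, and collagen IX decorates their surface and links them to other matrix proteins. In chondrocytes these genes are direct targets of the transcription factor SOX9 and its partners SOX5 and SOX6. Several of them are also known from the developing heart valve, whose matrix shares proteins with cartilage and tendon, and cartilage foci can form in the aortic root of mice.

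The study measured RNA in aortic valves and ascending aortas dissected from mice aged 30 days on Affymetrix mouse genome arrays. Both tissues came from Eln+/+ mice and from Eln+/- mice, which are heterozygous for Eln, the gene of elastin. A valve piece took in the cusp with its annulus and root. Tissue and genotype gave 4 groups, each with 4 arrays, and an array stands for 1 unpooled specimen. The labels give neither the strain, the sex nor the kind of Eln allele, and do not tie the pieces of either tissue to particular mice. Replicate numbers below are those of the labels.

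Values are on the log2 scale of a ratio, which sets each array's signal for a probe set over the median of that probe set on the 16 arrays. A value of 0 is the middle array of that probe set and a value of 1 is a doubling, where the median ratio is 1. This held for 39780 of the 45037 probe sets. The other 5257, among them 1420280_x_at of Col9a3, had a median ratio below 1. The ratio holds no absolute level, so the genes cannot be ranked against each other by abundance. Differences are given as log2 difference ± SE from 1 limma model over all probe sets, and a difference passed when its Benjamini-Hochberg adjusted p was under 0.05. In whole pieces of tissue, fewer cells of a type and less RNA per cell cannot be told apart.

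Several features of the arrays bear on all comparisons. Eln itself, by the leading of its 2 probe sets, was between 0.05 and 0.48 in aorta Eln+/+ and between -0.64 and 0.13 in aorta Eln+/-. In the valve it was between -1.19 and 0.04 in Eln+/+ and between -2.62 and -0.81 in Eln+/-. The genotypes overlapped in both tissues there, and the differences of -0.42 ± 0.34 in the aorta and -1.27 ± 0.34 in the valve did not pass (adjusted p = 0.900 and 0.395). The second Eln probe set had -0.22 ± 0.22 and -0.61 ± 0.22 (adjusted p = 0.920 and 0.454). Its aortas did not overlap, with 0.083 to 0.27 in Eln+/+ and -0.21 to 0.044 in Eln+/-, and its valves did. With the mean of cardiac muscle markers as a covariate the valve difference of Eln was -0.04 ± 0.26 (adjusted p = 0.999), and with Xist minus Y-linked genes as a covariate it was -1.49 ± 0.45 (adjusted p = 0.567). The mean of 16 cardiac muscle markers was between -3.90 and -1.05 in the 8 aortas. It was between 0.51 and 1.56 in valve Eln+/+ and between 1.38 and 2.34 in valve Eln+/-. Thymocyte and T cell markers averaged 1.58 and 0.80 on replicates 2 and 4 of aorta Eln+/-, and at most -0.01 in aorta Eln+/+. Xist was at the smallest ratio of the table, a log2 value of -6.64, on 6 of the 8 Eln+/+ arrays. It was between -0.06 and 0.32 on all 8 Eln+/- arrays, and Y-linked genes ran the opposite way. The genotype therefore cannot be told apart from that sex-linked difference, whereas the tissues are balanced for it within each genotype.

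Of the 6 genes, 5 were higher in the valve than in the aorta when the genotypes were averaged, and Col9a2 was the exception. By leading probe sets, the differences of the 5 genes ran from 0.97 for Col11a2 to 2.93 for Col9a1, which are 1.96-fold and 7.64-fold on the linear scale. The leading probe set of a gene is that with the highest SD over all arrays. A tissue difference raises this SD, so the choice favours large differences. The other probe sets of Col9a1, Col9a3 and Col11a1 had smaller differences, from 0.0084 to 1.13. Of the 10 probe sets, 7 passed and were higher and 0 were lower. Over all probe sets, 4.4% passed and were higher, 1981 of 45037. The median difference was 1.08 over the 10 probe sets and -0.04 over all probe sets. In Eln+/+ 3 of the 10 passed, with 0.848% passing and higher over all probe sets. In Eln+/- 6 of the 10 passed, with 3.27% over all probe sets. Without replicates 2 and 4 of aorta Eln+/-, which held the thymocyte signal, 3 of the 10 passed in Eln+/-. The ranges of valve and aorta did not overlap, with the valve above, in 4 of the 10 probe sets in Eln+/+ and in 8 of the 10 in Eln+/-. The shares over all probe sets were 3.59% and 5.62%.

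**Figure D1:**
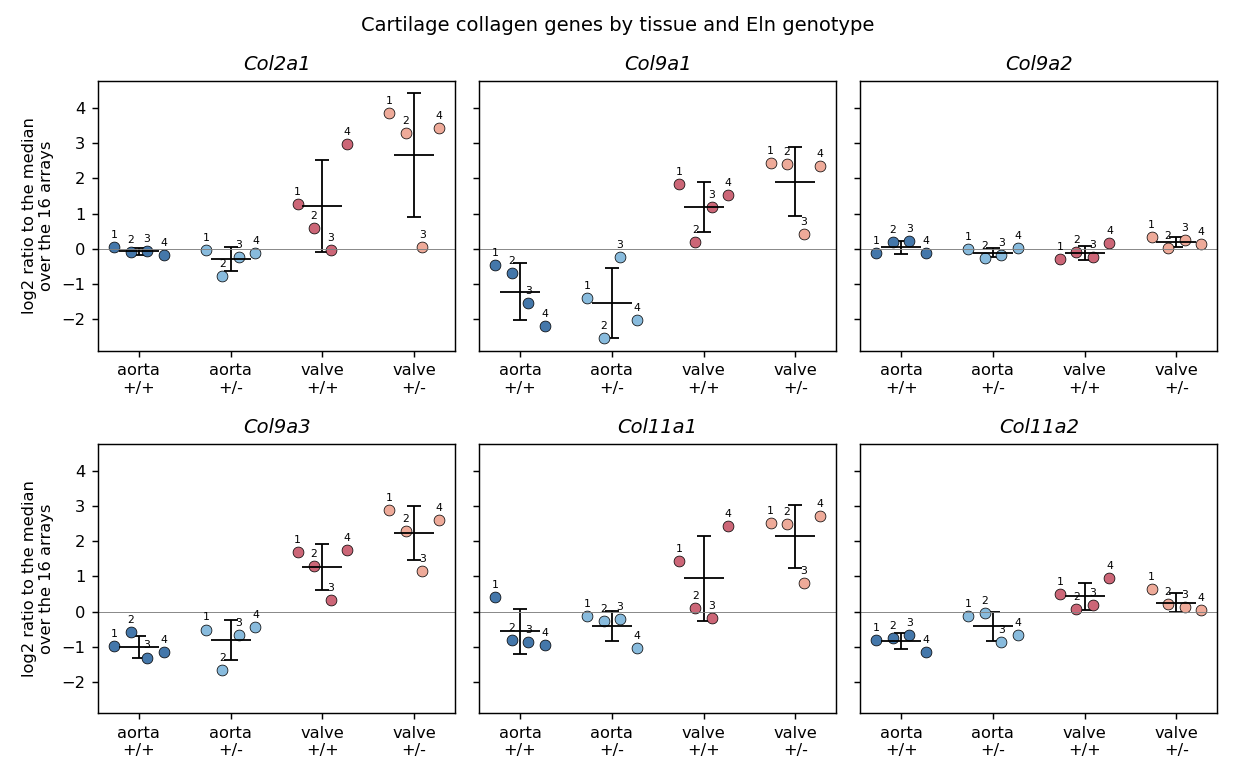
Log2 ratio to the median over the 16 arrays (y axis) of each gene in the 4 groups (x axis), by the probe set with the highest SD. Points are arrays with their replicate number, lines are the mean and bars 1 SD (n = 4), and valve Eln+/- replicate 3 sits far below the other 3 valve Eln+/- arrays for Col2a1, Col9a1 and Col11a1.

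Col2a1 encodes the single chain of collagen II. Its values in aorta Eln+/+ were 0.04, -0.10, -0.05 and -0.18, and in aorta Eln+/- they were -0.05, -0.78, -0.22 and -0.11. In valve Eln+/+ they were 1.28, 0.60, -0.04 and 2.99, and in valve Eln+/- 3.85, 3.29, 0.06 and 3.43. All aortas thus lay near or below the middle array, while the valves spanned nearly 4 log2 units, with 4 valves close to 3 or above and 2 at the level of the aorta. The valve means were 1.21 ± 1.30 in Eln+/+ and, higher and as widely spread, 2.66 ± 1.75 in Eln+/- (SD, n = 4 each).

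Averaged over genotypes, Col2a1 was higher in the valve by 2.11 ± 0.49, or 4.33-fold (adjusted p = 0.0136), although 1 Eln+/+ valve lay inside the aortic range. In Eln+/- the difference of 2.95 ± 0.69, or 7.71-fold, passed (adjusted p = 0.0195) and the groups did not overlap. In Eln+/+ the difference of 1.28 ± 0.69 did not pass (adjusted p = 0.494). The call in Eln+/- was lost on leaving out certain single arrays. The adjusted p was 0.0686 without valve Eln+/- replicate 1 and 0.0534 without its replicate 4, and the call held in 14 of the 16 removals. Without replicate 3 of that group the difference was 3.82. The adjusted p was 0.110 without the aortas with the thymocyte signal and 0.0575 when the fit held only the Eln+/- arrays.

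Collagen IX is a heterotrimer of the products of Col9a1, Col9a2 and Col9a3. It does not form fibrils itself, and the Col9a1 chain carries a globular domain that stands out from the fibril surface. Col9a1 has separate start sites that give a long and a short chain. The windows of 150 bases upstream of these starts are shown with that of Col9a2, because Col9a1 and Col9a2 code for chains of 1 molecule but differed in the tissue comparison below. They were read from RefSeq promoter entries on build GRCm38.p6, plus strand, 5′ to 3′, at chr1:24177460-24177609 and chr1:24195053-24195202 for Col9a1 and chr4:121039416-121039565 for Col9a2. Capitals mark a GC box, GGGCGG or its reverse complement CCGCCC.
Col9a1, first start: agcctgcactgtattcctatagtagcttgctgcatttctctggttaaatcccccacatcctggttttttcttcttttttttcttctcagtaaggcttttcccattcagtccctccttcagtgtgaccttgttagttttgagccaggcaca
Col9a1, second start: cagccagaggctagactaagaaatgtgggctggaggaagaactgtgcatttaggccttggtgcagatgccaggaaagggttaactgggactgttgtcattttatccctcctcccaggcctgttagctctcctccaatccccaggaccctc
Col9a2: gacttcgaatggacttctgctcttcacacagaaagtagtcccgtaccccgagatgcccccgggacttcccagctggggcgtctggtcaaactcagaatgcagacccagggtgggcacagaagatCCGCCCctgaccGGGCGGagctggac
The windows were searched on both strands for the GC box, the TATA box TATAAA and 2 cores of the kind SOX proteins bind, AACAAT and ACAAAG. Neither Col9a1 window held any of these. The Col9a2 window held 2 GC boxes on opposite strands, which start 26 and 14 bases before the start site. In the windows of Col11a1 and Col11a2 there were 2 GC boxes each, and in that of Col11a2 also 1 TATA box. No SOX-type core was found in the 5 windows of these 4 genes. Of 32851 windows of this length, 28.6% held the GC box, 7.57% the TATA box, 5.31% AACAAT and 9.88% ACAAAG. RefSeq entries were matched for 4 of the 6 genes, not for Col2a1 and Col9a3.

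The leading probe set of Col9a1, 1428571_at, was at -0.45, -0.69, -1.54 and -2.20 in aorta Eln+/+ and at -1.39, -2.54, -0.24 and -2.03 in aorta Eln+/-. It was at 1.83, 0.21, 1.20 and 1.53 in valve Eln+/+ and at 2.43, 2.42, 0.43 and 2.35 in valve Eln+/-. Every valve of either genotype lay above every aorta. The mean difference of 2.93 ± 0.39 passed (adjusted p = 0.000233), as did the difference in Eln+/- of 3.46 ± 0.55, or 11-fold (adjusted p = 0.00173).

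In Eln+/+ the difference of Col9a1 was 2.41 ± 0.55, or 5.31-fold. Its adjusted p of 0.0528 lay just above the threshold even though the groups did not overlap. It lay under the threshold in several other settings, from 0.0253 to 0.0474, and stayed above it in 4 of 11. With the mean of the gene's probe sets it was 0.0698. Leaving out 1 array made it pass in 4 cases, with an adjusted p of 0.0248 without valve Eln+/- replicate 3, 0.0345 without aorta Eln+/- replicate 3, 0.0359 without valve Eln+/+ replicate 2 and 0.0397 without aorta Eln+/- replicate 2. In 12 of the 16 removals it did not pass, and it rose to 0.172 at most. The other probe set of the gene, 1421381_a_at, had smaller differences of 0.77 ± 0.20 for the mean of the genotypes (adjusted p = 0.0234) and 0.99 ± 0.28 in Eln+/- (adjusted p = 0.0459). In Eln+/+ that probe set had 0.54 ± 0.28 and did not pass (adjusted p = 0.465). Which of the long and short transcripts each probe set reads was not determined.

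Col9a3 showed the clearest separation of the 6 genes by adjusted p. Its leading probe set, 1460693_a_at, was at -0.98, -0.59, -1.30 and -1.14 in aorta Eln+/+ and at -0.51, -1.65, -0.67 and -0.44 in aorta Eln+/-. It was at 1.69, 1.29, 0.34 and 1.76 in valve Eln+/+ and at 2.88, 2.27, 1.15 and 2.60 in valve Eln+/-. No valve reached down to any aorta.

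For Col9a3 the difference was 2.66 ± 0.27 for the mean of the genotypes, or 6.31-fold (adjusted p = 2.48e-05). It passed within Eln+/+ at 2.27 ± 0.38 (adjusted p = 0.00921) and within Eln+/- at 3.04 ± 0.38 (adjusted p = 0.000317). A further probe set, 1460734_at, passed in the same comparisons with smaller differences of 1.04 ± 0.12, 0.97 ± 0.17 and 1.11 ± 0.17. The last, 1420280_x_at, lay between -1.58 and -1.31 on all 16 arrays and hardly moved, with a mean difference of 0.0084 (adjusted p = 0.97). Its median ratio of 0.374 is below 1, as in 5257 of the probe sets, where the divisor appears to have been a floor.

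Col9a2, the remaining chain of collagen IX, stayed within a narrow band. It was at -0.12, 0.20, 0.22 and -0.13 in aorta Eln+/+ and at -0.02, -0.25, -0.18 and 0.02 in aorta Eln+/-. It was at -0.28, -0.09, -0.23 and 0.16 in valve Eln+/+ and at 0.34, 0.02, 0.25 and 0.13 in valve Eln+/-. The 16 arrays thus covered less than 1 log2 unit, and the tissues overlapped when the genotypes were put together.

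The mean valve difference of Col9a2 was 0.07 ± 0.10, with a 95% interval from -0.14 to 0.28 (adjusted p = 0.761). In Eln+/- the 4 valves lay at or above the highest aorta, at 0.29 ± 0.14, and this did not pass (adjusted p = 0.266). Since the table holds no level, a probe set that reads little signal cannot be told apart from a gene that is even across the tissues.

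**Figure D2:**
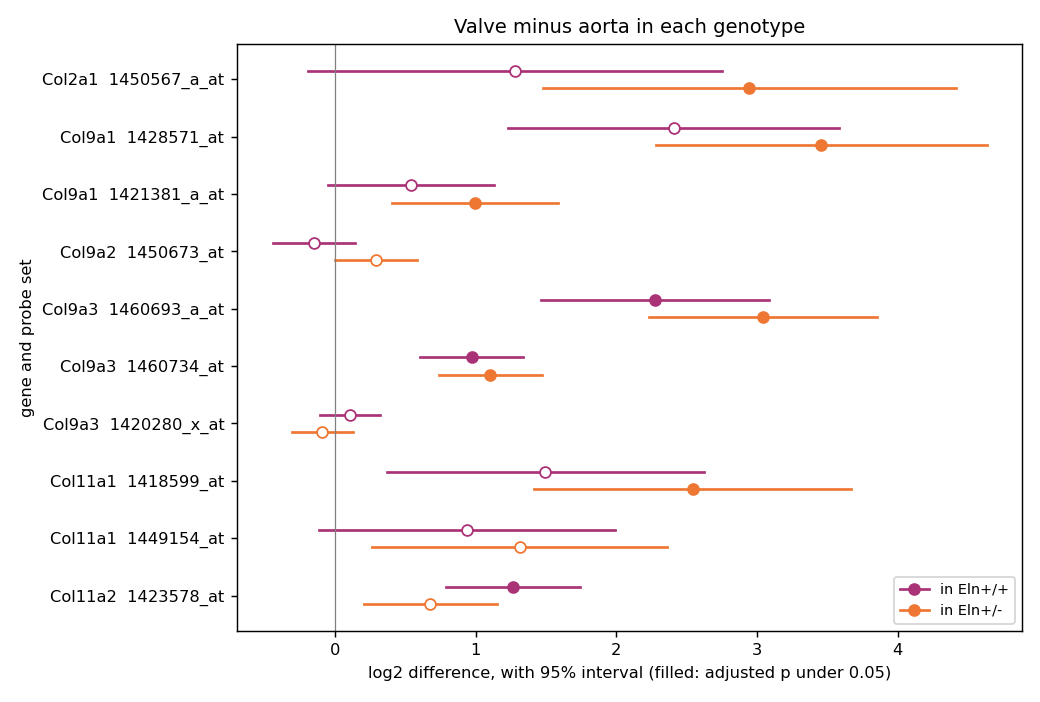
Log2 difference of valve minus aorta (x axis) for the 10 probe sets (y axis) in Eln+/+ and in Eln+/-, with 95% intervals and filled points where the adjusted p was under 0.05. In Eln+/- 6 of the 10 points are filled and in Eln+/+ 3 are, while the point of Col9a2 and that of the last Col9a3 probe set stay near 0.

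Collagen XI is a heterotrimer that holds the Col11a1 and Col11a2 chains and a further chain made from Col2a1. Col11a1 also occurs in non-cartilage tissues, where its product can assemble with collagen V chains. Its leading probe set, 1418599_at, was at 0.40, -0.82, -0.85 and -0.95 in aorta Eln+/+ and at -0.12, -0.27, -0.22 and -1.03 in aorta Eln+/-. It was at 1.43, 0.11, -0.20 and 2.41 in valve Eln+/+ and at 2.52, 2.49, 0.81 and 2.71 in valve Eln+/-. On this probe set replicate 1 of aorta Eln+/+ stood above the other aortas and above replicates 2 and 3 of valve Eln+/+.

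The mean difference of Col11a1 was 2.02 ± 0.38, or 4.05-fold (adjusted p = 0.00323). It passed in Eln+/- at 2.54 ± 0.53, or 5.83-fold (adjusted p = 0.0101), where the groups did not overlap, but not without aorta Eln+/- replicates 2 and 4 (adjusted p = 0.0792). In Eln+/+ it was 1.5 ± 0.53 and did not pass (adjusted p = 0.261). The second probe set, 1449154_at, had differences of 1.13 ± 0.35 for the mean and 1.31 in Eln+/-, neither of which passed (adjusted p = 0.0618 and 0.146).

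Col11a2, whose product is the other chain particular to collagen XI, had smaller differences on tighter values. It was at -0.79, -0.74, -0.66 and -1.16 in aorta Eln+/+ and at -0.12, -0.05, -0.87 and -0.66 in aorta Eln+/-. It was at 0.49, 0.08, 0.18 and 0.95 in valve Eln+/+ and at 0.64, 0.21, 0.12 and 0.05 in valve Eln+/-. All valves were above all aortas, and the lowest Eln+/- valve and the highest Eln+/- aorta were 0.05 and -0.05.

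Averaged over genotypes Col11a2 was higher in the valve by 0.97 ± 0.16, or 1.96-fold (adjusted p = 0.00121). Here the Eln+/+ comparison passed, at 1.26 ± 0.22 or 2.40-fold (adjusted p = 0.0118). The Eln+/- comparison, at 0.68 ± 0.22, did not (adjusted p = 0.0916), and it passed without aorta Eln+/- replicate 2 (adjusted p = 0.0479). The genotypes' tissue differences were not shown to differ, since the interaction of -0.59 did not pass (adjusted p = 0.675).

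The order of the group means was the same for Col2a1 and Col9a1, with valve Eln+/- highest, then valve Eln+/+, aorta Eln+/+ and aorta Eln+/-. For Col9a3 and Col11a1 the valve groups kept that order and aorta Eln+/- lay above aorta Eln+/+. For Col11a2 valve Eln+/+ was highest at 0.43 ± 0.39 and valve Eln+/- followed at 0.25 ± 0.27 (SD, n = 4 each). For Col9a2 the 4 means lay between -0.11 and 0.18. Neighbours of the same tissue did not differ by the test in any of these orders. The step from valve Eln+/+ down to the aorta passed within Eln+/+ for Col9a3 and Col11a2 only.

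The genotype comparison asks whether these genes differ in mice heterozygous for Eln. In the valve the Eln+/- mean was above the Eln+/+ mean for 5 of the 6 genes, and in none of them did the difference pass. The valve values of Col2a1, Col9a1, Col9a3 and Col11a1 given above overlapped between the genotypes in each case. Of the 10 probe sets 0 passed, against 0% of all probe sets, although 3873 of 45037 had an unadjusted p under 0.05. The smallest adjusted p of any probe set was 0.0539. In 0 of the 10 were all Eln+/- valves above all Eln+/+ valves, against 3% of all probe sets. In 1, the Col9a3 probe set 1420280_x_at, they were all below, by 0.17 in the mean, against 2.04% of all probe sets.

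Col2a1 was higher in Eln+/- valves by 1.45 ± 0.69, or 2.74-fold, with a 95% interval from -0.02 to 2.92 (adjusted p = 0.583). For Col11a1 the difference was 1.19 ± 0.53, or 2.29-fold, with an interval from 0.07 to 2.32 (adjusted p = 0.550). Col9a3 differed by 0.96 ± 0.38, or 1.94-fold, with an interval from 0.15 to 1.77 (adjusted p = 0.503). These values are those of the leading probe sets. The intervals are per probe set and not adjusted, so those of Col9a3 and Col11a1 exclude 0 while their adjusted p does not pass. The intervals of the other probe sets of both genes held 0. The second Col11a1 probe set had 0.25 ± 0.49, with an interval from -0.80 to 1.30. For Col9a3, 1460734_at had 0.17 ± 0.17, with an interval from -0.20 to 0.54, and 1420280_x_at had -0.17 ± 0.10.

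The remaining genes differed less between the genotypes in the valve. Col9a1 had a difference of 0.71 ± 0.55 with an interval from -0.46 to 1.89, and Col9a2 one of 0.29 ± 0.14 (adjusted p = 0.760 and 0.581). For Col11a2 it was -0.17 ± 0.22 with an interval from -0.65 to 0.30 (adjusted p = 0.876). Cardiac muscle markers moved with the genotype in the valve as well, with all 16 markers higher in Eln+/- at a median difference of 0.80 and none past the threshold. With the cardiac mean as a covariate the valve differences were 1.60 for Col2a1, 0.93 for Col9a1, 1.13 for Col9a3, 0.92 for Col11a1, 0.09 for Col9a2 and -0.60 for Col11a2. Col2a1, Col9a1 and Col9a3 were thus higher with the covariate and the other genes lower, and these shifts were not tested. The fit with the covariate held only the valve arrays, where the cardiac means of the genotypes barely overlapped. For Col11a1 the SE was 0.94 with the covariate and 0.53 without it. With Xist minus Y-linked genes as the covariate the differences were 1.77 for Col2a1, 1.66 for Col9a1, 0.99 for Col9a3, 1.78 for Col11a1, 0.36 for Col9a2 and 0.15 for Col11a2. That covariate leaned on valve Eln+/+ replicate 2 and aorta Eln+/+ replicate 4, the only Eln+/+ arrays with Xist near the Eln+/- values. Averaging a gene's probe sets gave 0.49 for Col9a1, 0.32 for Col9a3 and 0.72 for Col11a1. None passed in these settings.

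In the aorta the genotype differences ran from -0.33 ± 0.55 for Col9a1 to 0.41 ± 0.22 for Col11a2, whose interval was from -0.06 to 0.89, and none passed (adjusted p = 0.885 to 0.987 over the 10 probe sets). With the Xist minus Y covariate Col11a2 was at 0.73 ± 0.27 and Col11a1 at 0.72 ± 0.67, and neither passed. Of the 10 probe sets 0 passed, against 0% of all probe sets, of which 2480 had an unadjusted p under 0.05. In 0 of the 10 were the Eln+/- aortas all above the Eln+/+ aortas, against 1.39% of all probe sets. The difference between the genotype effects of valve and aorta, the interaction, was 1.67 ± 0.98 for Col2a1, 1.05 for Col9a1, 1.05 for Col11a1, 0.77 for Col9a3 and 0.44 for Col9a2. None passed (adjusted p = 0.636 to 0.744), 0 of the 10 probe sets did, and 0% of all probe sets did, with 3477 at an unadjusted p under 0.05.

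**Figure D3:**
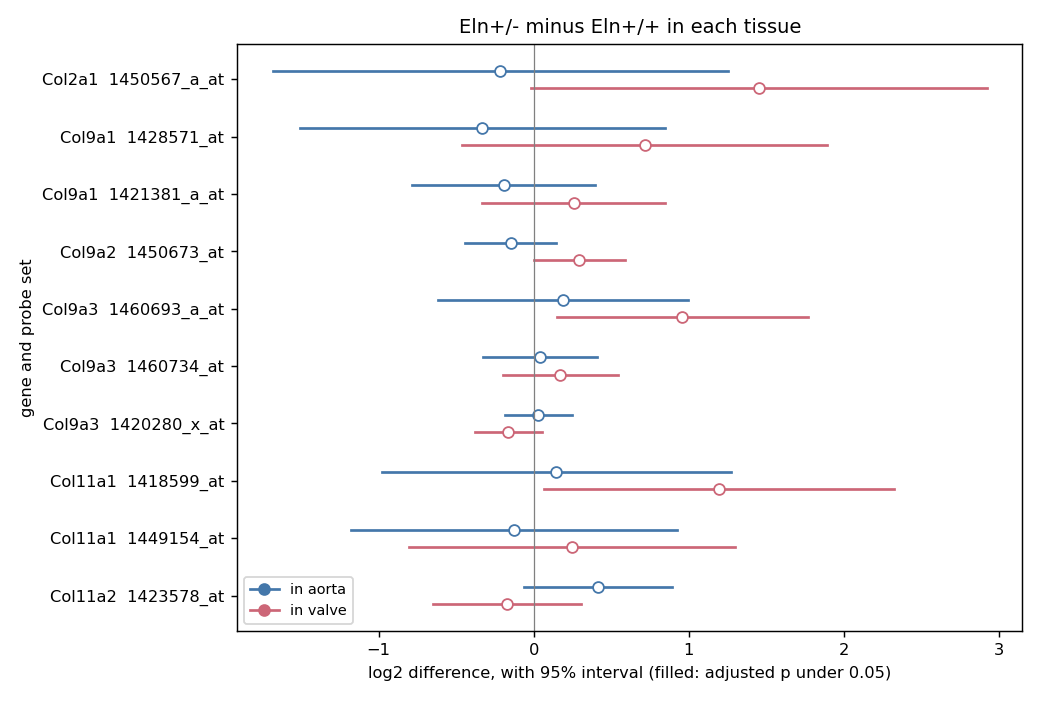
Log2 difference of Eln+/- minus Eln+/+ (x axis) for the 10 probe sets (y axis) in aorta and in valve, with 95% intervals. No point is filled, since no adjusted p was under 0.05. In the valve Col2a1 and the leading probe sets of Col11a1 and Col9a3 have the differences farthest from 0.

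Within each genotype the valves spread widely in Col2a1, Col9a1, Col9a3 and Col11a1, and the same arrays were low or high for several of these genes. Valve Eln+/- replicate 3 was at 0.06 for Col2a1, 0.43 for Col9a1 and 0.81 for Col11a1, where the other 3 arrays of its group were between 3.29 and 3.85, 2.35 and 2.43, and 2.49 and 2.71. By leading probe sets, replicate 4 of the Eln+/+ valves had the highest Col2a1, Col9a3 and Col11a1. Replicate 3 had the lowest values of these 3 genes. On the leading probe sets, replicates 1 and 4 of valve Eln+/+ were above replicates 2 and 3 for every gene but Col9a2. Other probe sets did not all keep this order. Replicate 4 was lowest on 1421381_a_at of Col9a1, at -0.02, and replicate 2 on the second Col11a1 probe set, at -0.18. On 1460734_at of Col9a3, replicate 2 was at 0.68 and replicate 1 at 0.51.

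Correlations over the 8 valves were taken on deviations from the group means, and the arrays share a scale and the dissected pieces. Col2a1 and Col11a1 had Pearson r = 0.93, Col2a1 and Col9a3 0.91, and Col2a1 and Col9a1 0.80. Col11a1 had r = 0.86 with Col9a3 and 0.77 with Col9a1, and Col9a1 had r = 0.69 with Col9a3. Col11a2 followed less closely, at 0.67 with Col2a1, and Col9a2 was at 0.29 with Col2a1 and -0.19 with Col9a1. Valve Eln+/- replicate 3, far below its group for Col2a1, Col9a1 and Col11a1, weighed heavily in these r, for Col9a1 above all. The same holds for the r with chondrocyte markers below, and no r was taken without that array. Over the 8 aortas the r of Col2a1 was 0.84 with Col9a3 and 0.07 with Col11a1. The 2 probe sets of Col11a1 had r = 0.89 with each other over the valves, those of Col9a1 0.53, and the first pair of Col9a3 0.65. Over the aortas the same pairs had 0.0064, 0.24 and 0.064.

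Markers of chondrocytes were set beside these values, leaving out Col2a1. They were Acan, Sox9, Matn1, Matn3, Hapln1, Cnmd, Snorc, Comp and Ucma, and all 9 were measured. Their mean was between -1.0 and -0.56 in the 8 aortas, between 0.09 and 0.60 in valve Eln+/+ and between -0.17 and 1.17 in valve Eln+/-. Over the 8 valves its deviations had r = 0.91 with Col9a3, 0.85 with Col2a1, 0.82 with Col9a1, 0.73 with Col11a1, 0.49 with Col11a2 and 0.09 with Col9a2. The same r with the cardiac muscle mean was between -0.13 and 0.14 for the first 4 genes, 0.68 for Col11a2 and 0.63 for Col9a2.

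The markers did not move as 1 block. Comp, Ucma, Hapln1, Cnmd and Sox9 passed in valve minus aorta and were higher, where 4.4% of all probe sets passed and were higher. Each marker was read by its probe set of highest SD, a choice that favours tissue differences and that the share does not involve. Acan, the main proteoglycan of cartilage, had a difference of -0.11 (adjusted p = 0.917), and Matn1 and Matn3, matrilins of cartilage, 0.02 and -0.68 (adjusted p = 0.924 and 0.269). Snorc, a chondrocyte transmembrane proteoglycan, had -0.20 (adjusted p = 0.439). On valve Eln+/- replicate 3, Acan was at -2.08 and Hapln1 at 0.04, while Sox9 was at 0.86 and Ucma at 1.49. That array also had the lowest smooth muscle mean of the valves, -1.80, the highest cardiac muscle mean, 2.34, and the lowest Eln, -2.62. The part of piece composition in the spread of the collagen genes was not tested.

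**Figure D4:**
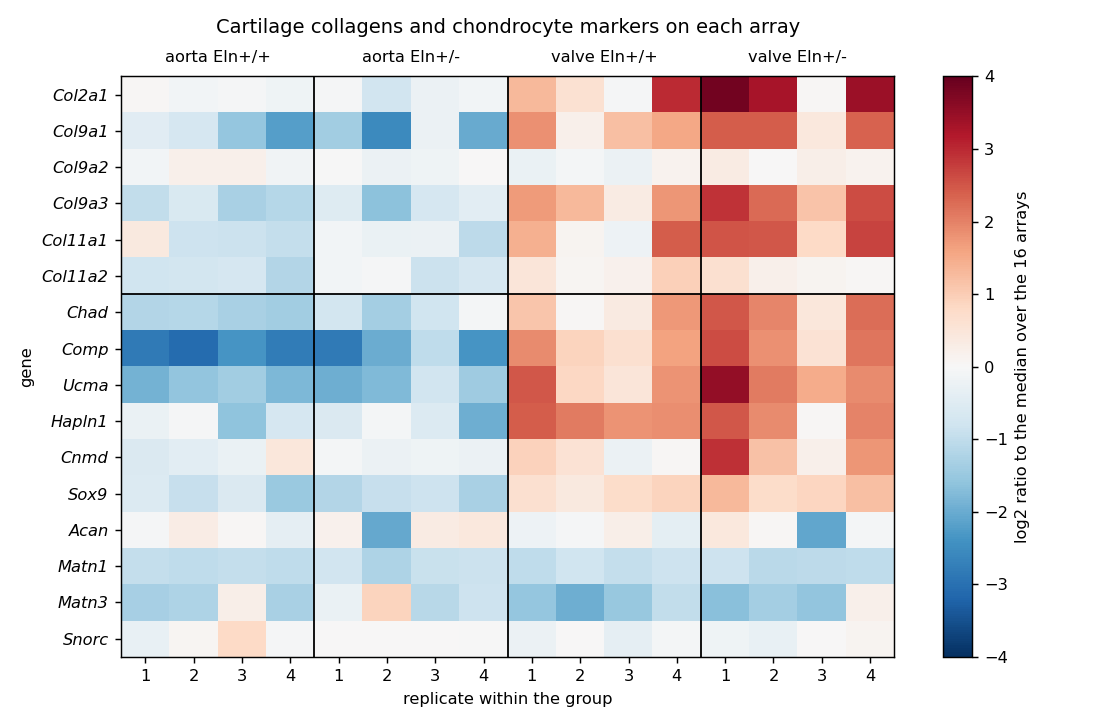
Log2 ratio (colour) of the 6 collagen genes, Chad and the 9 chondrocyte markers other than Col2a1 (y axis) on each of the 16 arrays (x axis, replicate within the group). Col2a1, Col9a1, Col9a3, Col11a1 and Chad have their highest values on valve Eln+/- replicates 1, 2 and 4, and Acan, Matn1, Matn3 and Snorc show no step between aorta and valve.

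Other genes of the same matrix were counted from lists, each gene by its leading probe set. In valve minus aorta the shares over all probe sets, for all the lists that follow, were 4.4% higher and 3.64% lower. The list counts and these shares are not alike. A leading probe set was picked for its SD over all arrays, which a tissue difference raises, and the shares involve no such choice. The choice can lift the counts above the shares, and by how much was not tested. Of 23 names of cartilage matrix proteins other than collagens, 22 were measured, and in valve minus aorta 10 passed as higher and 1 as lower, with a median difference of 0.42. Comp, which binds collagens II and IX, was higher by 3.92 ± 0.30, or 15.2-fold (adjusted p = 2.89e-06). Ucma, a secreted protein of young chondrocytes, was higher by 3.39 ± 0.31, and Prg4, the lubricin of joint surfaces, by 4.32 ± 0.50. Chad, a leucine-rich protein that binds collagen II, was higher by 2.30 ± 0.29 (adjusted p = 0.000156). In valve Eln+/- minus Eln+/+ none of the 22 passed, with 17 differences above 0 and a median of 0.27. The lowest p were those of Otor at 0.64 ± 0.23 and Cnmd at 1.18 ± 0.42 (adjusted p = 0.448 and 0.454).

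Among the regulators of cartilage, 17 of 19 were measured, 4 passed as higher in the valve and 5 as lower (4.4% and 3.64% over all probe sets), and the median was -0.06. Sox9, the main activator of the collagen II, IX and XI genes, was between -1.47 and -0.54 in the aortas and between 0.39 and 1.29 in the valves. It was higher in the valve by 1.81 ± 0.14, or 3.5-fold (adjusted p = 3.93e-06), and by 1.54 in Eln+/+ and 2.07 in Eln+/-. Sox5 and Sox6, its partners, had differences of -0.12 and 0.02 (adjusted p = 0.834 and 0.973). Trps1, a GATA-type repressor, was higher by 1.18 ± 0.22. Bmpr1b, a BMP receptor of cartilage condensations, was lower, at -2.56 ± 0.33 (adjusted p = 0.000156), and Arid5b, a chromatin factor, at -0.98 ± 0.20. In the valve genotype comparison none passed, with Bmpr1b at -1.56 ± 0.46 and Foxc2 at -0.63 ± 0.33.

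Of 15 other fibrillar and fibril-associated collagens, 14 were measured, 3 passed as higher in the valve and 0 as lower (4.4% and 3.64% over all probe sets), and the median was -0.27. Col5a3, a chain of collagen V, was higher by 0.87 ± 0.17 (adjusted p = 0.00478), Col12a1 by 0.99 ± 0.27 and Col16a1 by 0.46 ± 0.12. Col3a1, the collagen of distensible vessels, had -0.44 ± 0.14 and did not pass (adjusted p = 0.0636). In valve Eln+/- minus Eln+/+ none passed and the median was -0.32, with Col27a1 at -0.74 ± 0.22 and Col5a1 at -0.57 ± 0.21 (adjusted p = 0.422 and 0.460).

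Enzymes and chaperones that modify, fold, export or trim procollagens were split. Of 28, 25 were measured, 3 passed as higher in the valve and 6 as lower (4.4% and 3.64% over all probe sets), and the median was -0.15. Colgalt2, a collagen galactosyltransferase, was higher by 1.06 ± 0.17, and P4ha3, a prolyl hydroxylase chain, by 1.01 ± 0.16. P4hb, the shared subunit of the prolyl hydroxylases, was lower at -0.45 ± 0.11 and Pcolce2, an enhancer of propeptide removal, at -0.73 ± 0.14. None passed between the genotypes of the valve, where the median was -0.17, P4ha2 was at -0.43 and Fkbp14 at -0.47.

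Of 10 collagen receptors 9 were measured and none passed, with Ddr1 at 0.41 ± 0.12 (adjusted p = 0.0522) and Itga1 at -0.64 ± 0.20 (adjusted p = 0.0644). Ddr2, a receptor for fibrillar collagens that include collagen II, was at -0.35 (adjusted p = 0.106). Of 10 genes of collagen II breakdown, all measured, Mmp3 was higher by 1.27 ± 0.26 and Mmp9 was lower at -0.72 ± 0.17. Mmp13, the main collagenase of cartilage, was at 0.41 (adjusted p = 0.231). Of 10 genes of osteoblasts and hypertrophic cartilage 7 were measured and none passed, with a median of -0.04. Col10a1, the collagen of hypertrophic cartilage, was at -0.15 (adjusted p = 0.746). In these last 3 groups none passed between the genotypes of the valve.

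The genes most like each collagen gene were found by Pearson r of deviations from the 4 group means over the 16 arrays, among 18187 other genes. For Col2a1 they were Chad at 0.91, Poldip3 at 0.87, Cdcp3 at 0.86, Nlrc5 at 0.82 and Fzd9 at 0.81. Chad was also among the 5 most like Col9a3, at 0.84, behind Rps18 at 0.90. The nearest were Gripap1 for Col9a1 at 0.87, Dusp16 for Col11a1 at 0.85, Csmd3 for Col11a2 at 0.88 and Crybg2 for Col9a2 at 0.90. Chad was at 1.12, 0.06, 0.35 and 1.74 in valve Eln+/+ and at 2.50, 1.95, 0.46 and 2.24 in valve Eln+/-. Its low arrays in each group were also low for Col2a1, although the lowest Eln+/+ valve was not the same array. Chad was picked for its r with Col2a1 on these arrays, so this likeness follows from the choice. With 16 arrays and so many genes compared, an r of this size is a description of these arrays.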

How the data were processed

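The authors named RMA for normalization, per the submitters' processing notes. RNA of each specimen, 1 to 20 ng, was amplified before labelling, per the labels' protocols. What the authors deposited is a linear ratio of a probe set's signal to its median over the 16 arrays. The division was read from the values. The median was 1, within 1e-06, in 39780 of 45037 probe sets, below 1 in 5257 and above 1 in 0, and the smallest ratio was 0.01. No level, detection call or genome build is given in the sources used here, so probe sets could not be filtered by signal level, and the number of arrays limits the precision.

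The 64 control probe sets were left out. Annotation gave 34945 probe sets 1 gene, 932 several and 9160 none, and 34741 were matched to RefSeq genes by Entrez identifier. Log2 ratios of all 45037 probe sets were fitted with limma 3.58.1 (lmFit and eBayes, R 4.3.3) as 4 group means over 16 arrays, with 12 residual degrees of freedom. Two-sided p-values were adjusted by the Benjamini-Hochberg method over all of them, at a threshold of 0.05. The fit was tested on simulated data. A gene is led by its probe set of highest SD over all arrays, a choice that favours large tissue differences. From each list, the text names up to 4 genes of lowest p in valve minus aorta and up to 2 in the valve genotype comparison, plus the chondrocyte markers and, for each collagen gene, the genes of highest correlation. Sox5 and Sox6 were named for their role, after their values were seen. The collagen genes and the lists were chosen with earlier results of these data known. No 2 arrays were duplicates, the highest correlation between arrays being 0.61.

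Alternatives were a pseudocount of 0.1, quantile normalization, subtraction of array medians, robust eBayes, array weights, leaving out probe sets of median below 1 (the nearest to a filter on dim ones), the mean of a gene's probe sets, fits of only the groups compared, covariates for cardiac markers and for Xist minus Y-linked genes, a replicate block, and leaving out arrays.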

Additional observations from a re-analysis of the deposited data

Results flagged for a closer look

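In 48 sets of 4 arrays, one for each collagen probe set or Eln probe set in each group, 6 had an array far from the other 3 by Dixon's test at 95%. Chance gives about 1 in 20. In valve Eln+/-, replicate 3 was low for Col2a1 (0.055, others 3.29 to 3.85), for Col9a1 (0.43, others 2.35 to 2.43) and for Col11a1 (0.81, others 2.49 to 2.71). In aorta Eln+/+, replicate 1 was high for Col11a1 by its leading probe set (0.40, others -0.95 to -0.82). In aorta Eln+/-, replicate 4 was low for Col11a1 (-1.03, others -0.27 to -0.12) and replicate 2 for Eln (-0.64, others 0.00 to 0.13). All flags fell on leading probe sets. On the second Col11a1 probe set, aorta Eln+/+ replicate 1 was at -0.03 and aorta Eln+/- replicate 4 at -0.10, and neither was flagged. The cause of these values was not tested.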

How the results depend on the processing

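Of the 10 collagen probe sets, 7 passed in valve minus aorta averaged over genotypes, with 6 to 8 when 1 array was left out. In Eln+/+ 3 passed, with 2 to 4, and in Eln+/- 6, with 4 to 7, and 3 without aorta Eln+/- replicates 2 and 4 together, where fewer samples entered. The genotype and interaction counts stayed at 0 in every setting run. Signs turned in 4 genotype results, none of which had passed: in the aorta Col2a1 was 0.10 with the Xist minus Y covariate, and Col9a1 was 0.59 with it and 0.40 without aorta Eln+/- replicates 2 and 4, and in the valve Col11a2 was 0.15 with that covariate. The Xist minus Y covariate leaned on aorta Eln+/+ replicate 4 and valve Eln+/+ replicate 2. Leaving out 1 array gave Col11a2 values from -0.30 to 0.0017 in the valve. The causes were not tested.

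Over all probe sets, 426 passed in Eln+/+ and 692 after quantile normalization, with 173 to 553 when 1 array was left out. In Eln+/- 2615 passed, 1602 when only its arrays were fitted, 1578 without aorta replicates 2 and 4, and 1366 to 3457 when 1 array was left out. The lowest counts were those without valve Eln+/+ replicate 1 and without valve Eln+/- replicate 3. The genotype comparisons gave 0 to 1 in the aorta and 0 to 11 in the valve when 1 array was left out, the 11 without valve Eln+/- replicate 4. In the valve 1 passed with the pseudocount, with array weights or without probe sets of median below 1.

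Averaging a gene's probe sets gave smaller mean tissue differences of 1.24 for Col9a3, 1.85 for Col9a1 and 1.57 for Col11a1. Same-numbered arrays of different groups had correlations of deviations between -0.17 and 0.07, and arrays of unlike number between -0.22 and 0.24. Such values cannot exclude that pieces of both tissues came from the same mice. The Eln+/+ array with Xist near the Eln+/- values was replicate 4 in the aorta and replicate 2 in the valve, so those numbers did not mark the same mouse. With a replicate block 7, 3 and 6 collagen probe sets passed in the tissue comparisons, and 0 in the others.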
